A study of Mus musculus with 4 samples.

Results

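BCL6 binding was examined at the genes of the interleukins, the tumour necrosis factor (TNF) family, the CC chemokines and their receptors in adipocyte nuclei of mouse fat. BCL6 is a zinc finger transcriptional repressor. The members were all BCL6 peaks whose nearest gene, as named by the authors, is an interleukin or an interleukin receptor or accessory chain, a Tnfsf, Tnfrsf or Tnfaip gene, a Ccl or Ccr gene, or Tnf, Lif, Lifr, Osmr or Il6st, at any distance from the promoter. The rule found 31 of 5741 peaks, 8 of 1785 in the inguinal (subcutaneous) list and 23 of 3956 in the perigonadal (visceral) list. They belong to 24 genes, 7 with an inguinal peak, 22 with a perigonadal peak and 5 with both.

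The study had 4 samples, a BCL6 immunoprecipitate and an input DNA control from each depot, and the peak lists of the 2 BCL6 samples were used. All animals were C57BL/6 mice of genotype Adipoq-Cre;Sun1-sfGFP-myc, with no treatment named in the labels and no age, sex or number of animals given. The Adipoq promoter drives Cre in adipocytes, so the Sun1 tag marks their nuclear envelope, and nuclei were collected through its myc epitope after crosslinking with disuccinimidyl glutarate for 30 minutes and 1% formaldehyde for 10 minutes. The antibody was a custom guinea pig polyclonal serum against mouse Bcl6, and each depot had 1 BCL6 library. No difference between depots could therefore be tested, and no p-value is given. A peak list holds no expression values, so the cell type could not be checked from marker transcripts. BCL6 peaks within 50 kb were found at 1 of 8 adipocyte marker genes in either list (Cidec in inguinal, Lpl in perigonadal fat) and at none of the 8 macrophage, 8 lymphocyte, 6 endothelial and 6 fibroblast markers. The share over all protein-coding genes at that distance was 4.25% for the inguinal and 8.89% for the perigonadal list, so lists this short do not tell the cell types apart.

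Many interleukins and the LIF family signal through paired receptor chains that activate JAK kinases and STAT transcription factors, whose DNA site resembles that of BCL6. Others, such as the IL-1, IL-18 and IL-17 families, use adaptor proteins that lead to NF-kappaB instead. The IL-6 and LIF cytokines share the signalling chain gp130, encoded by Il6st, which acts together with further receptor chains such as those of Il6ra, Lifr and Osmr. Many TNF family ligands act through TRAF adaptors and NF-kappaB, and chemokines attract leukocytes to inflamed tissue. In fat these factors are best known as signals between adipocytes and immune cells.

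The inguinal peak on Il6ra was the only one of the 31 that lay on the promoter itself, and the perigonadal peak on Il18bp was the only other one within 1 kb. The RefSeq promoters of both genes are shown for that reason. Each is the stretch of 250 bases before the annotated start on the minus strand of GRCm38.p6, the assembly behind mm10. Il6ra lies at chr3:89913197-89913446 and Il18bp at chr7:102018233-102018482. Capitals mark the bases that fall inside the BCL6 peak.
Il6ra: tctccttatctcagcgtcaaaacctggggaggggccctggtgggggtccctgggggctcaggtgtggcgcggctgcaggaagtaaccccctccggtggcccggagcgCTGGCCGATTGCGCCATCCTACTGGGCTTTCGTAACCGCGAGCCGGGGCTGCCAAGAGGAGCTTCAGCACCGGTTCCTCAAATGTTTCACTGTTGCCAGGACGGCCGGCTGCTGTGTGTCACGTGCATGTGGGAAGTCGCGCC
Il18bp: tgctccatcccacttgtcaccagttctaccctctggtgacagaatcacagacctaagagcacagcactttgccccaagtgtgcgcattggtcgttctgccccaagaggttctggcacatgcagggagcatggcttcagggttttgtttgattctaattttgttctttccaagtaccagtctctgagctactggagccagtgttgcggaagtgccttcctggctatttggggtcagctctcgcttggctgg
The Il6ra peak covered the 143 bases next to the start site. The Il18bp peak lay in intron 2 of 6, past the start, and covered none of the bases shown. The Il6ra stretch is 65.2% G and C and the Il18bp stretch 52.4%, where the median of 32851 promoters is 52.4%.

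The palindrome TTCCTAGAA, which BCL6 is known to recognise, the general STAT palindrome TTCNNNGAA, which contains it, and the AP-1 site TGANTCA were searched on both strands in the RefSeq promoters of 300 bases (250 before and 50 after the start). Neither the Il6ra nor the Il18bp promoter held any of them. Of the 24 genes 22 matched the table, with 28 promoters. TTCCTAGAA was in 0 of these 28 (Wilson 95% interval 0 to 12.1%) and in 0.411% of all 32851 promoters. TTCNNNGAA was in 1, that of Tnfaip6, or 3.57% (0.633 to 17.7%), against 8.30% of all and 13.0% (8.57 to 19.2%) of the 154 promoters of the whole family, with or without a peak. TGANTCA was in 9 of 28, or 32.1% (17.9 to 50.7%), against 7.81% of all and 20.8% (15.1 to 27.9%) of the family. Only 1 of the 28 promoters, that of Il6ra, lay under a BCL6 peak. None of the 9 with TGANTCA did, which follows from the peak positions and says nothing about the motif. These matches describe promoter letters, not the sequence of the peaks, most of which lay far from a promoter and were not read here.

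Peak scores are the authors' values, scaled within each list. They are whole multiples of 1 step, read as 1 sequenced tag, and each score is given below with the exact Poisson 95% interval of its tags. The intervals and the Wilson intervals of shares cover counting error only. A lower score cannot tell fewer bound nuclei from less binding per nucleus. The member peaks were of ordinary height for their lists. Inguinal members scored from 8.27 to 20.3 with a median of 10.5, beside a median of 9.03 over the list. Perigonadal members scored from 6.17 to 24.7 with a median of 8.82, which was also the median of that list. More than 12 tags were reached by 5 of 8 inguinal members (beside 41.3% of the list) and 4 of 23 perigonadal members (beside 24%). The tallest peaks of the lists reached 200.1 and 260.1.

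**Figure D1:**
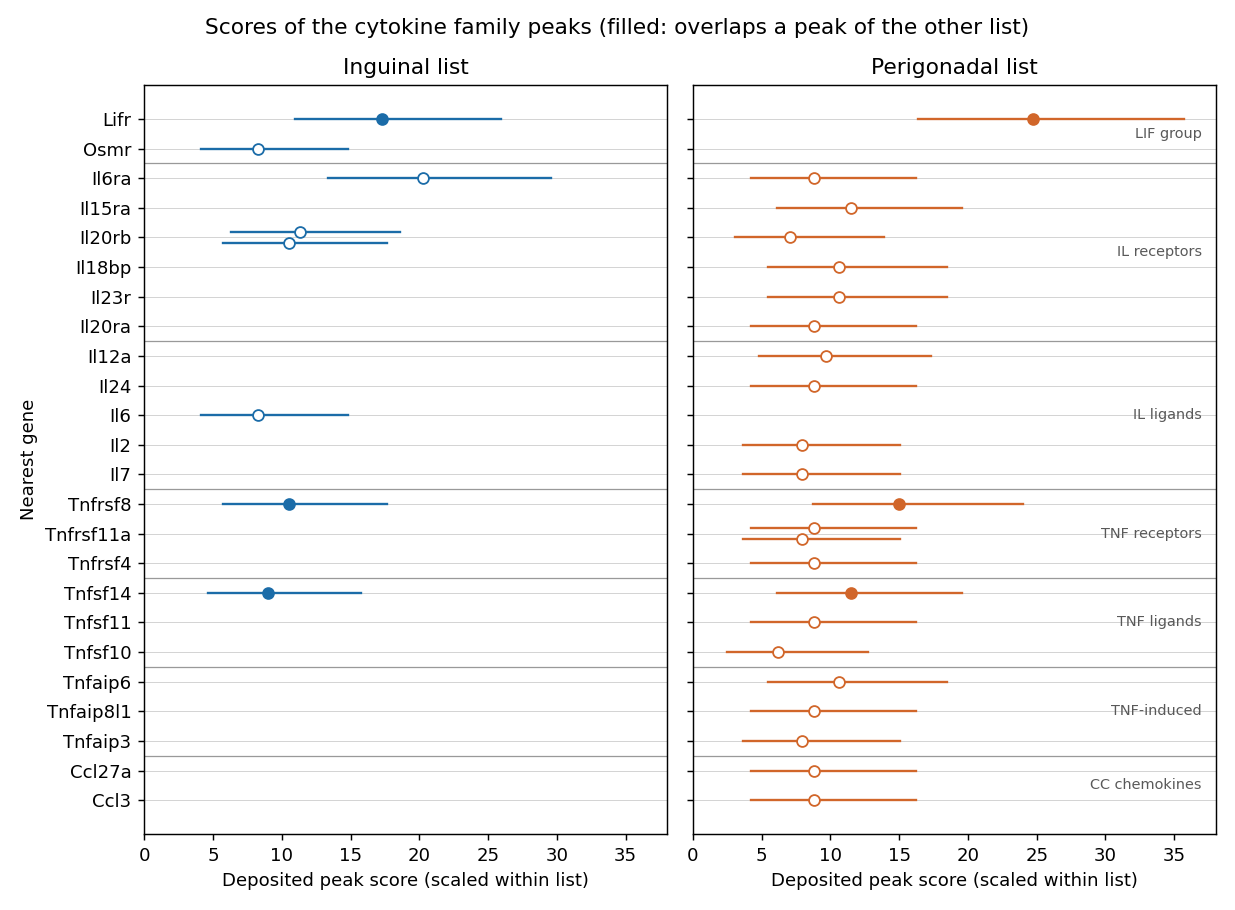
Deposited score (horizontal axis, scaled within each list) of every cytokine family peak by nearest gene, with exact Poisson 95% intervals of its tags as lines, in the inguinal (left) and perigonadal (right) list. Filled points overlap a peak of the other list: these are Lifr, Tnfrsf8 and Tnfsf14. The inguinal Il6ra peak, an open point, stands at 20.3, and the other open points sit between 6.17 and 11.5.

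Receptor genes of the IL-6 and LIF family carried the tallest member peak of each list, Il6ra in inguinal and Lifr in perigonadal fat. Lifr encodes the chain that binds LIF and pairs with gp130. Its inguinal peak scored 17.3 (11.0 to 26.0) at chr15:7201888-7202090 and ranked 218 of 1785. The perigonadal peak scored 24.7 (16.4 to 35.7) at chr15:7201847-7202031 and ranked 165 of 3956, as the tallest member of that list. The centres of these peaks were 50 bp apart. The site is intergenic, 61.4 kb downstream of the promoter the authors assigned and 4.40 kb past the end of the gene by the inguinal coordinates.

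Il6ra encodes the chain that binds IL-6. Its inguinal promoter peak, at chr3:89913137-89913339, scored 20.3 (13.4 to 29.6), the highest inguinal value among the members. No perigonadal peak overlapped it. The perigonadal Il6ra peak lay 10.8 kb downstream in intron 1 of 9 at chr3:89902307-89902491 and scored 8.82 (4.23 to 16.2), a score that 1398 peaks of that list have. Il6ra was thus in both lists, at different sites.

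Osmr and Il6 had inguinal peaks alone. Osmr encodes the oncostatin M receptor chain and lies near Lifr on chromosome 15. Its peak lay 39.5 kb upstream at chr15:6913724-6913926 and scored 8.27 (4.13 to 14.8). The peak nearest to Il6, the IL-6 gene itself, lay 64.7 kb upstream at chr5:29948272-29948474. It was annotated to intron 2 of 2 of another transcript and scored 8.27 as well, which is 11 tags. The nearest perigonadal peaks lay 159.5 kb from the Osmr site and 322.6 kb from the Il6 site. Of 8 genes of this receptor system (Il6, Il6ra, Il6st, Il11, Il11ra1, Lif, Lifr and Osmr), 4 had an inguinal and 2 a perigonadal peak, beside 6.15% and 12.3% of all protein-coding genes at any distance. The grouping was made after the values were seen, so nothing is read from its count. The gp130 gene Il6st and Lif had none in either list.

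Among the other interleukin receptors the IL-20 receptor chains were reached at several sites. Il20rb encodes the beta chain of the receptors for IL-19, IL-20 and IL-24. Its inguinal peaks, at chr9:100431120-100431322 and chr9:100440161-100440363, scored 11.3 (6.32 to 18.6) and 10.5 (5.76 to 17.7). They lay 55.3 and 46.2 kb downstream of the promoter, beyond the end of the gene and 9.04 kb from each other, and the first is in an LTR repeat. The perigonadal peak of Il20rb lay 1.76 kb downstream of the promoter, in intron 1 of 6 and in a SINE repeat at chr9:100484616-100484800, and scored 7.05 (3.04 to 13.9), or 8 tags. It was 44.4 kb from the nearest inguinal peak.

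The partner chain Il20ra and the ligand Il24 had perigonadal peaks alone, each of 8.82. The former lay in intron 1 of 6 of its gene, 29.7 kb from the promoter, and the latter 10.1 kb upstream in a SINE repeat. The genes of both chains of the IL-20 receptor and of a ligand were therefore in the perigonadal list, beside 12.3% of all protein-coding genes. Their scores were no higher than the median of that list. The ligand genes Il19 and Il20 had no peak in either list. This grouping was made after the values were seen, so nothing is read from it.

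The remaining interleukin receptor genes were perigonadal. The peak assigned to Il15ra, whose product presents IL-15 to neighbouring cells, scored 11.5 (6.10 to 19.6) at chr2:11690315-11690499. It lay 14.9 kb upstream of Il15ra and inside the neighbouring gene Il2ra, in the 3' UTR within exon 8 of 8. Il2ra encodes the alpha chain of the IL-2 receptor, so the name Il15ra follows from the nearest promoter and not from the gene that holds the site. Il18bp, which encodes a secreted decoy for IL-18, scored 10.6 (5.47 to 18.5) at chr7:102017483-102017667, 0.580 kb downstream of the promoter. Il23r, the gene of the IL-23 specific chain, scored 10.6 in intron 7 of 10 at chr6:67441837-67442021.

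The interleukin ligand genes had low peaks. Il12a, which encodes the p35 subunit of IL-12, scored 9.70 (4.84 to 17.4) with a site 49.7 kb upstream at chr3:68640853-68641037. Il2, the gene of a T cell growth factor, and Il7, that of a lymphocyte survival factor, scored 7.93 (3.63 to 15.1) each. The Il2 site was in intron 3 of 3 and the Il7 site 67.3 kb upstream. With Il6 and Il24, 5 of 40 interleukin ligand genes had a peak in either list, beside 15.4% of all protein-coding genes. All of these peaks rested on 9 to 11 tags.

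**Figure D2:**
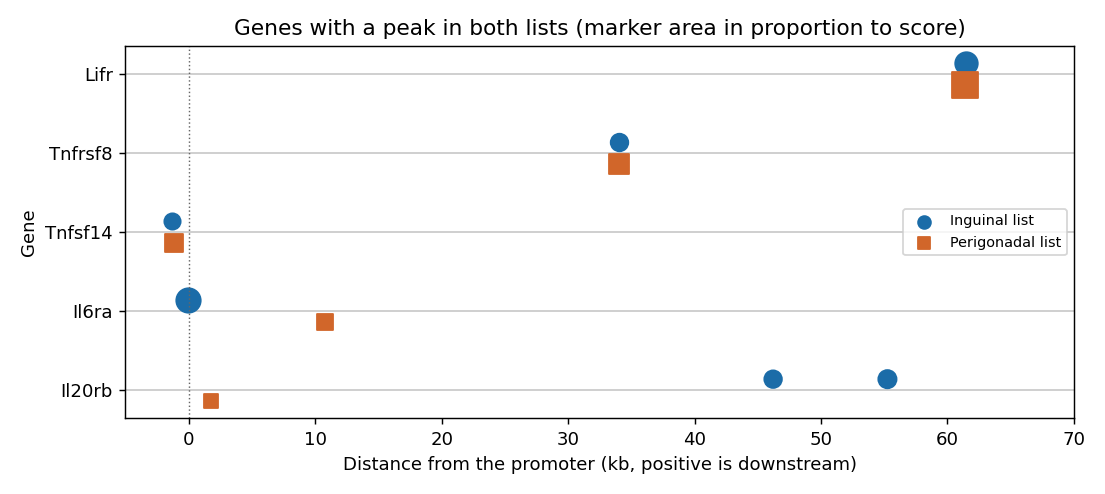
Distance of the peaks from the promoter in kb (horizontal axis, positive is downstream) for the 5 genes with a peak in both lists. Circles are inguinal and squares perigonadal peaks, with marker area in proportion to the score. The markers of Lifr, Tnfrsf8 and Tnfsf14 coincide between the lists, while inguinal and perigonadal markers of Il6ra and of Il20rb lie 10.8 kb or more apart.

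In the TNF family the overlapping sites were those of Tnfrsf8 and Tnfsf14. Tnfrsf8 encodes CD30, a receptor of activated lymphocytes. Its peaks lay in intron 10 of 12 with centres 1 bp apart, at chr4:145280983-145281185 in inguinal and chr4:145280993-145281177 in perigonadal fat. They scored 10.5 (5.76 to 17.7) and 15.0 (8.73 to 24.0) and ranked 530 and 480. Tnfsf14 encodes LIGHT, a ligand of the lymphotoxin beta receptor. The peaks upstream of it scored 9.03 (4.66 to 15.8) and 11.5 (6.10 to 19.6) at chr17:57195364-57195566 and chr17:57195277-57195461. Their centres were 96 bp apart, 1.28 and 1.19 kb upstream of the promoter, and both lie in an ERVK LTR repeat. The focus ratio, an authors' fraction for how closely tags gather at the centre of a peak, was 0.542 for the perigonadal Tnfsf14 peak, the lowest among the perigonadal members, whose median was 0.833, and 0.818 for the inguinal one.

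The other TNF family genes were in the perigonadal list alone. Tnfrsf11a encodes RANK, the receptor of the ligand encoded by Tnfsf11. Tnfrsf11a had peaks of 8.82 and 7.93, at 74.9 and 100.6 kb downstream of its promoter and past the end of the gene, the nearer in a LINE repeat. The Tnfsf11 peak, 97.8 kb upstream in a DNA repeat, scored 8.82. This receptor and ligand pair was thus in the list only through sites beyond 50 kb. Tnfrsf4, the OX40 gene, scored 8.82 with a site 4.47 kb upstream that lies in exon 6 of 7 of the neighbouring gene Sdf4. Tnfsf10, the TRAIL gene, had the lowest score of the perigonadal members, 6.17 (2.48 to 12.7) or 7 tags, 55.8 kb upstream in an LTR repeat.

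The Tnfaip genes had perigonadal peaks for 3 of 8 members, beside 12.3% of all protein-coding genes, and inguinal peaks for 0 of 8, beside 6.15%. No interval was computed for this group of 8, so no excess is read from these counts. Tnfaip6, which encodes the secreted protein TSG-6, scored 10.6 (5.47 to 18.5), with a site 10.1 kb upstream in a SINE repeat at chr2:52027956-52028140. Tnfaip8l1 scored 8.82 in its intron, 5005 bases from the promoter. Tnfaip3, which encodes the NF-kappaB inhibitor A20, scored 7.93 with a site 42.3 kb from its promoter, past the end of the gene and in a SINE repeat. These are 9 to 12 tags each.

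CC chemokine genes had perigonadal peaks for 2 of 25 members and CC chemokine receptor genes for 0 of 11, beside 12.3% of all protein-coding genes. In inguinal fat both counts were 0, beside 6.15%. Ccl27a, a skin chemokine gene, scored 8.82 at the end of a transcript, 1.62 kb from its promoter at chr4:41772389-41772573. It has close copies on the same chromosome, so its reads may not be assigned with certainty. Ccl3, the gene of a macrophage inflammatory protein, scored 8.82 with a site 13.4 kb downstream at chr11:83635893-83636077. Tnf itself had no peak in either list. A missing peak means that none was called.

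Set against the whole family, these counts were near those of all genes. Of 162 protein-coding genes whose RefSeq symbol fits the rule, 7 had an inguinal peak, 4.32% (2.11 to 8.65%), beside 6.15% of all 21900 protein-coding genes. With 22 genes, the perigonadal share was 13.6% (9.14 to 19.7%) beside 12.3%. Within 50 kb the shares were 3.09% beside 4.25% in inguinal and 10.5% beside 8.89% in perigonadal fat. All 4 background values lie inside the Wilson intervals of the family. Gene length and spacing were not matched. By role, the counts in inguinal and perigonadal fat were 2 and 1 of 4 for Lif, Lifr, Osmr and Il6st, 2 and 6 of 42 for the other interleukin receptors, 1 and 3 of 20 for TNF receptors and 1 and 3 of 12 for TNF ligands.

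Overlap between the lists was also close to its background. The 3 overlapping pairs were 37.5% of the inguinal members (13.7 to 69.4%), beside 28.5% of all inguinal peaks. They were 13.0% of the perigonadal members (4.54 to 32.1%), beside 12.8%. Of genes with an inguinal peak, 5 of 7 in the family also had a perigonadal one (71.4%, 35.9 to 91.8%), beside 48.7% of all such protein-coding genes. The overlapping perigonadal members were the tall ones. Among perigonadal members of more than 12 tags 3 of 4 overlapped, beside 43.6% of all such peaks, and among those of up to 12 tags 0 of 19, beside 3.13%. Of inguinal members 2 of 5 with more than 12 tags overlapped, beside 59.1%, and 1 of 3 with up to 12 tags, beside 6.88%. The 20 perigonadal members without a partner lay 10.8 kb to 1786 kb from the nearest inguinal peak, and 16 of them more than 100 kb away. These distances were not computed for all perigonadal peaks without a partner, so nothing particular to the members is read from them.

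**Figure D3:**
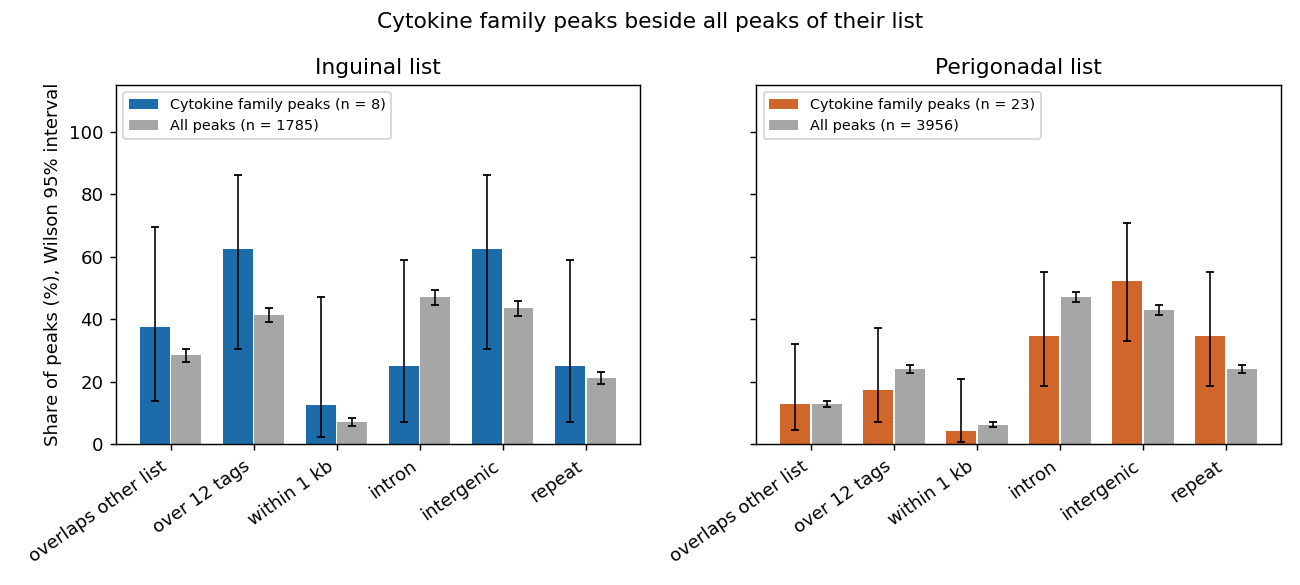
Share of cytokine family peaks (coloured bars, 8 inguinal and 23 perigonadal) and of all peaks of the list (grey bars) that overlap a peak of the other list, exceed 12 tags, lie within 1 kb of a promoter, or lie in an intron, an intergenic position or a repeat. Error bars are Wilson 95% intervals, and every family interval includes the value of its list.

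For position, too, every interval of the members included the value of their list. Intergenic sites held 5 of 8 inguinal members (62.5%, 30.6 to 86.3%, beside 43.5%) and 12 of 23 perigonadal members (52.2%, 33.0 to 70.8%, beside 42.9%). Introns held 2 of 8 (beside 47%) and 8 of 23 (beside 47.1%). In annotated repeats lay 2 of 8 (beside 21.1%) and 8 of 23 (34.8%, 18.8 to 55.1%, beside 24%). The inguinal repeats were LTR elements, and the perigonadal ones 4 SINE, 2 LTR, 1 LINE and 1 DNA element. Within 1 kb of a promoter lay 1 of 8 (beside 7.06%) and 1 of 23 (beside 6.22%). Within 50 kb lay 5 of 8 (beside 64%) and 17 of 23 (beside 62.4%). Overlap with the RefSeq span of the named gene was found for 2 of 8 and 9 of 23. The others lay upstream (3 and 9) or past the end of the gene (3 and 5). Places relative to gene spans were not computed for all peaks, so these last counts only describe the members.

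**Figure D4:**
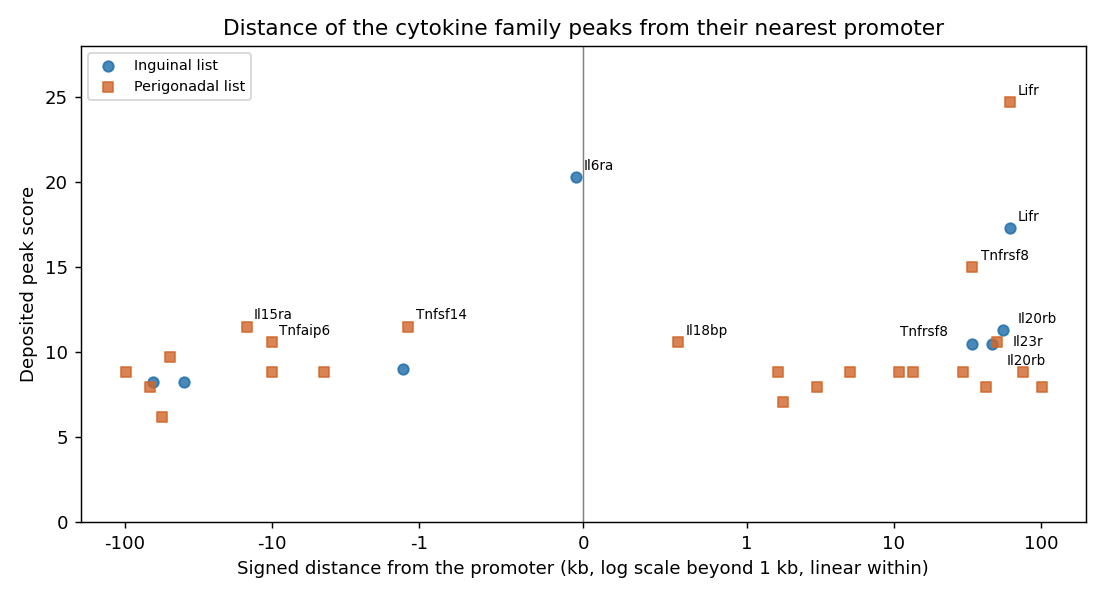
Deposited score of each cytokine family peak (vertical axis, scaled within its list) against its signed distance from the assigned promoter in kb (horizontal axis, log scale beyond 1 kb, negative is upstream), with inguinal peaks as circles and perigonadal peaks as squares. The Il6ra peak sits at the promoter, while the Lifr peaks, also among the tallest, sit 61.4 kb downstream.

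Downstream of these receptors, a list of 47 JAK, STAT, TRAF and NF-kappaB signalling genes was examined for peaks within 50 kb. In inguinal fat 2 of 47 had one (4.26%, 1.17 to 14.2%) and in perigonadal fat 9 of 47 (19.1%, 10.4 to 32.5%), beside 4.25% and 8.89% of all protein-coding genes. Counting only peaks over 12 tags left 1 and 4 of 47, beside 1.88% and 2.42%. Without the limit on tags, the perigonadal interval lay above 8.89%, and the inguinal interval included 4.25%. The list was chosen with earlier results of these data known, so no excess is read from these intervals and the counts only describe it. No test of enrichment was run. Only Nfkbia, the gene of an NF-kappaB inhibitor, was in both lists. The tallest perigonadal peaks otherwise were those of Socs3, Ikbkb and Traf1. Socs3 encodes a feedback inhibitor of JAK kinases, and its intergenic peak, 33.5 kb downstream, scored 25.6 (17.1 to 36.7). The peak in intron 2 of 21 of Ikbkb, which encodes a kinase that frees NF-kappaB, scored 19.4 (12.2 to 29.4). The peak 7.59 kb upstream of Traf1, an adaptor of TNF receptors, scored 14.1 (8.06 to 22.9). Fadd, Stat6, Traf2, Traf3 and Stat3 scored from 7.93 to 10.6. The other inguinal member, Jak1, which encodes a kinase bound to gp130, scored 7.52 (3.61 to 13.8) with a site 26.8 kb upstream.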

How the data were processed

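BCL6 was mapped by chromatin immunoprecipitation and sequencing in adipocyte nuclei of 2 fat depots. The submitters' processing notes name Bowtie 1.2, HOMER and the mm10 genome. Per the file headers, the deposited peaks were annotated by HOMER against mm10. The inguinal header names a false discovery rate of 0.001 and the perigonadal header names no threshold, so calling limits may differ. Pooling of libraries and the treatment of reads with several matches are not given in the sources used here. Each peak has a score, the authors' deposited value, and a focus ratio, a fraction deposited by the authors. The distance to the nearest promoter and the gene name are also the authors' values.

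Scores were whole multiples of 0.752 (inguinal) and 0.882 (perigonadal) for 100% of peaks within the rounding. A step was read as 1 tag; the scaling total is not given, so library depth is unknown. Scores were compared within a list only. Peaks overlapping by at least 1 bp were shared. Members were taken by gene name, and all 31 matched a RefSeq entry of GRCm38.p6 by Entrez number. Gene spans and promoters came from RefSeq. Intervals used scipy 1.17.1. Scripts were tested on simulated data. The members and gene lists were chosen with earlier results of these data known. Every member gene is named, with positions for overlapping peaks, for the tallest of each role group, for those within 1 kb and for genes in both lists. Further positions were added. Alternatives covered overlap, distance, tags, list length, promoter window and gene names. The 2 input libraries were not analysed here.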

Additional observations from a re-analysis of the deposited data

How the results depend on the processing

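The alternatives changed counts mainly through distance and height. Within 50 kb of the promoter 5 inguinal and 17 perigonadal member peaks were left, and within 10 kb 2 and 7, in 2 and 7 genes. With more than 12 tags 5 and 4 member peaks were left, in 4 and 4 genes, of which 2 were in both lists, and 0% of perigonadal members lay within 1 kb. Of the 4 perigonadal members of that height 50% (15 to 85%) had a partner of more than 12 tags. With the perigonadal list held to its 1806 tallest peaks, close to the length of the inguinal list with ties kept, 8 perigonadal members were left, 37.5% of them shared, and 3 genes were in both lists. A promoter window of 5 kb held 26.1% (12.5 to 46.5%) of perigonadal members. Counting peaks inside the span of a family gene, chosen after the data were seen, gave 2 inguinal and 10 perigonadal genes. Signalling genes numbered 1 and 4 within 10 kb, and 1 and 4 with more than 12 tags. These settings keep fewer peaks or widen the window by construction. For most of them no share over all peaks or all genes was computed. The counts therefore show how the reported values depend on the settings, and nothing else is read from them.

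The 3 overlapping pairs remained 3 by peak centres within 500 bp and with lists of like length, and were 2 with 50% overlap and 2 with more than 12 tags in each list. Of 48 values under alternatives, 26 stayed within set limits and 22 did not. The limits were 1.5 times the reported count or the 95% interval of the reported share. For a median the limit was the Poisson 95% interval of a peak of that height, which does not measure the spread of the median. With 8 inguinal members the interval of a share is wide: their share within 1 kb of a promoter was 12.5%, 20% among peaks of more than 12 tags and 25% with the window of 5 kb. A motif search in 100 bp around peak centres was not run, because no genome was used here. No paired analysis was possible because each depot had 1 BCL6 library. Of the 31 members 22 rest on 7 to 12 tags, and the intervals of these heights overlap.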
